A study of Homo sapiens with 16 samples.

Results

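Sterol and fatty acid synthesis genes were followed through a time course of TGF-beta in A549 cells, a human lung adenocarcinoma line with features of alveolar epithelium. The set is a list of 29 genes, matched by symbol to the rows of both deposited expression tables, out of 57773 genes in all. It holds 17 enzymes of the sterol pathway from HMGCS1 to DHCR7, 8 enzymes of fatty acid synthesis, elongation and desaturation, and 4 regulators or carriers, INSIG1, SREBF1, SREBF2 and STARD4. The series profiled total RNA at 8 times in the course of an epithelial to mesenchymal transition (EMT), 0, 6, 12, 24, 36, 48, 72 and 96 h, with 2 libraries at each time, called replicate 1 and replicate 2. The labels name no genetic change in the cells of any of the 16 libraries. The 0 h libraries are the only ones without a stated time in TGF-beta, so time in culture and time in TGF-beta cannot be told apart. The sources used here give neither the dose of TGF-beta nor whether the replicates were grown as separate cultures. The p-values therefore speak only of the spread among the libraries at hand, which may be technical. Expression is given as TPM, a length-corrected share of all transcripts in a library. Genes were tested where 2 or more libraries reached 1 TPM, which held for all 29 genes and for 16967 of the 57773.

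Cells make cholesterol from acetyl-CoA through mevalonate, isoprenoid diphosphates, squalene and lanosterol, and they build fatty acids from acetyl-CoA through malonyl-CoA; the alveolar epithelium has a high demand for lipid, since its type II cells make surfactant. Transcription of both routes is driven by the sterol regulatory element binding proteins (SREBPs), encoded by SREBF1 and SREBF2, which INSIG proteins hold in the endoplasmic reticulum when sterols are plentiful and which are released by proteolysis in the Golgi when sterols are scarce. SREBPs bind sterol response elements near gene starts together with the partner factors NF-Y, which reads CCAAT boxes, and SP1, which reads GC boxes.

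The 250 bases before the first listed RefSeq start were available for 26 of the 29 genes (GRCh38.p14), while FASN, SQLE and FDFT1 had no entry. Any other start of a gene was not searched, so a motif not found here may lie elsewhere. The windows below were chosen because they belong to an SREBP gene (SREBF2), to the 2 genes called lower at more than 1 time (HMGCS1 and ELOVL6), to the feedback regulator INSIG1 and to 2 genes that stood above 0 h at 24 h (STARD4 and ACLY). They lie at chr22:41832855-41833104 (plus strand), chr5:43313413-43313662 (minus), chr4:110198616-110198865 (minus), chr7:155297628-155297877 (plus), chr5:111512536-111512785 (minus) and chr17:41919023-41919272 (minus), each just upstream of the annotated first exon. Each is written 5′ to 3′ on the strand of its gene, and capitals mark matches on either strand to CCAAT, to GGGCGG or to TCACNCCAC, a form of the sterol response element.
SREBF2: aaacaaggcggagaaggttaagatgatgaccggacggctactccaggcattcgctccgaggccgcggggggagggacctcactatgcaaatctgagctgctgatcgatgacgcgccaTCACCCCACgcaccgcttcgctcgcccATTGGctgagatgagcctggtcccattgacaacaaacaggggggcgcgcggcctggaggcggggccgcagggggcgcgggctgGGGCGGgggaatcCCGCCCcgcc
HMGCS1: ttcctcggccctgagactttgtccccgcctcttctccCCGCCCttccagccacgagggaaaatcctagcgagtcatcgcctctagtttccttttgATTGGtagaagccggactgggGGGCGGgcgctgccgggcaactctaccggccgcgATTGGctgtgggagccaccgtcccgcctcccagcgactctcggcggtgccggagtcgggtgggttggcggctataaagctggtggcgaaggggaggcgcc
ELOVL6: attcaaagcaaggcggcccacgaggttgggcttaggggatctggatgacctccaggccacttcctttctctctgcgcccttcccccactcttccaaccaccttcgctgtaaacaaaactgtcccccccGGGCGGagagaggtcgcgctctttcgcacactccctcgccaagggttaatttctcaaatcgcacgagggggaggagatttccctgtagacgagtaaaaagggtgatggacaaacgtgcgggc
INSIG1: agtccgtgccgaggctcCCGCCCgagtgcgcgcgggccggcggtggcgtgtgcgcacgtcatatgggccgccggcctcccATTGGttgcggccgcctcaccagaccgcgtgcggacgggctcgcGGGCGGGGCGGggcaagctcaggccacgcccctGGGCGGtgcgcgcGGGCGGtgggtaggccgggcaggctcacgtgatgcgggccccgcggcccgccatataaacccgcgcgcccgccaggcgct
STARD4: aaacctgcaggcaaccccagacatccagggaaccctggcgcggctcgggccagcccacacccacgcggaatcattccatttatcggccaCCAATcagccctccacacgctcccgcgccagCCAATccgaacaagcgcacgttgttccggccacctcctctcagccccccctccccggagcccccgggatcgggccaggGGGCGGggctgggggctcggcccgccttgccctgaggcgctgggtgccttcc
ACLY: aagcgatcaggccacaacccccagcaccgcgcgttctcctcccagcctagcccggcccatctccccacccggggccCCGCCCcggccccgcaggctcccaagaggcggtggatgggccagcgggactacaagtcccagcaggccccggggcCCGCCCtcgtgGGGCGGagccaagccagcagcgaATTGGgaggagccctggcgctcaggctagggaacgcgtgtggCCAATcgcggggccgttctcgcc
CCAAT was found in 18 of the 26 windows (69.2%), against 33.0% of all 27305 RefSeq windows of that length and 35.1% of the 9858 windows of tested genes. GGGCGG was found in 24 of 26 (92.3%), against 42.3% of all windows and 66.4% of those of tested genes. TCACNCCAC was found in 1 of 26, the SREBF2 window, against 0.875% of all windows. Matches of different motifs shared no base. CCAAT and GGGCGG stood together in 17 windows, among them those of HMGCS1, INSIG1, STARD4 and ACLY. The ELOVL6 window held a GGGCGG match only, and the FADS2 window held none of the 3 motifs. In 23 of the 26 windows the 20 bases after the start were found in a GENCODE 29 transcript of the same gene.

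Several properties of the libraries moved along with time and replicate. Abundant small RNAs of 6 genes, such as RN7SL1, took 42.5% (12 h, replicate 1) to 64.1% (48 h, replicate 1) of all TPM. The 13 mitochondrially encoded transcripts summed to between 3631 TPM, in replicate 1 at 48 h, and 12276 TPM, in replicate 1 at 12 h. The replicate 2 libraries of 36 and 48 h listed 36116 and 36294 genes at 0, above the other libraries. TPM keeps no record of depth, so the depth behind each value is unknown. TPM is a share of the library, and the median of all tested genes differed from 0 h by -0.37, 0.03, -0.15, -0.16, -0.46, -0.16 and -0.20 on the log2(TPM + 1) scale from 6 to 96 h in turn. Scaling by trimmed means (TMM) removed this shift to within 0.04, and values after that scaling are given as TMM values. TGFBI, a secreted matrix protein induced by TGF-beta, rose by 2.64 at 24 h (limma, adjusted p = 0.00759), a call lost without replicate 2 of 0 h or either 24 h library. The 6 epithelial markers, led by KRT18, summed to 4887 and 5856 TPM at 0 h and to 2204 and 2849 at 96 h. Summed markers of hepatocytes (6 genes, 2.36 to 18.4 TPM, nearly all CPS1), adipocytes (6 genes, 7.34 to 22.1 TPM, mostly PPARG), leukocytes (5 genes, 4.23 to 9.80 TPM, mostly CD68) and fibroblasts (6 genes, 1.08 to 5.49 TPM) were low, and ALB, ADIPOQ, LEP, PTPRC and CD3E stayed under 1 TPM in all 16 libraries.

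Most of the 29 genes stood below their 0 h level throughout, by more in replicate 1 than in replicate 2 from 48 h on. Standing below 0 h was common among all 16967 tested genes too. At 24 and 36 h 22 and 23 of 29 genes did so in replicate 1, against 8685 and 7762 of all tested genes. In replicate 2 19 and 18 of 29 did so, against 12570 and 12515. At 48 h the counts were 28 and 27 of 29 in replicates 1 and 2, against 14470 and 12900. In replicate 1 the median gene was at 50.1%, 78.3%, 57.1%, 21.9%, 26.2% and 35.3% of its own 0 h TPM at 6, 24, 36, 48, 72 and 96 h. In replicate 2 it was at 62.2%, 76.8%, 84.5%, 68.1%, 62.8% and 53.9% at those times. In replicate 1 this median was thus low at 6 h, higher at 24 h and lowest at 48 h, while in replicate 2 it stayed above 50% at all of these times and was lowest at 96 h. The lowest value of the course fell at 48 h for 24 of 29 genes in replicate 1. In replicate 2 it fell at 96 h for 15 and at 6 h for 6. All 29 genes were lower in replicate 1 than in replicate 2 at 48 h, and 25 and 19 of 29 were so at 72 and 96 h, against 6 at 0 h. The share of all tested genes that were so is not given here. On the log2(TPM + 1) scale the median of all tested genes differed from 0 h by -0.54, -0.06 and 0.10 at 48, 72 and 96 h in replicate 1. In replicate 2 it differed by -0.38, -0.27 and -0.48. Since these are bulk libraries, fewer cells of a kind and less RNA per cell cannot be told apart.

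The 29 genes together made up 0.462% and 0.404% of the TPM outside the small RNAs at 0 h in replicates 1 and 2. At 48 h that share was 0.201% in replicate 1 and 0.385% in replicate 2, at 72 h 0.194% and 0.342%, and at 96 h 0.230% and 0.307%. At 24 h it was 0.461% and 0.477%, close to or above the 0 h share of the same replicate. Judged by mean TPM at 0 h, which is per length and can be set between genes, SCD (261 ± 52.1, SD, n = 2), ACLY (246 ± 43.6), FADS2 (176 ± 20.8) and FDPS (161 ± 1.90) were the most abundant, and PMVK (13.5 ± 0.629), SC5D (12.1 ± 3.54) and TM7SF2 (11.4 ± 1.46) the least. Neighbours in this order overlapped in their 2 libraries, SCD with ACLY, FADS2 with FDPS, PMVK with SC5D and SC5D with TM7SF2, while ACLY lay above FADS2 in both.

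**Figure D1:**
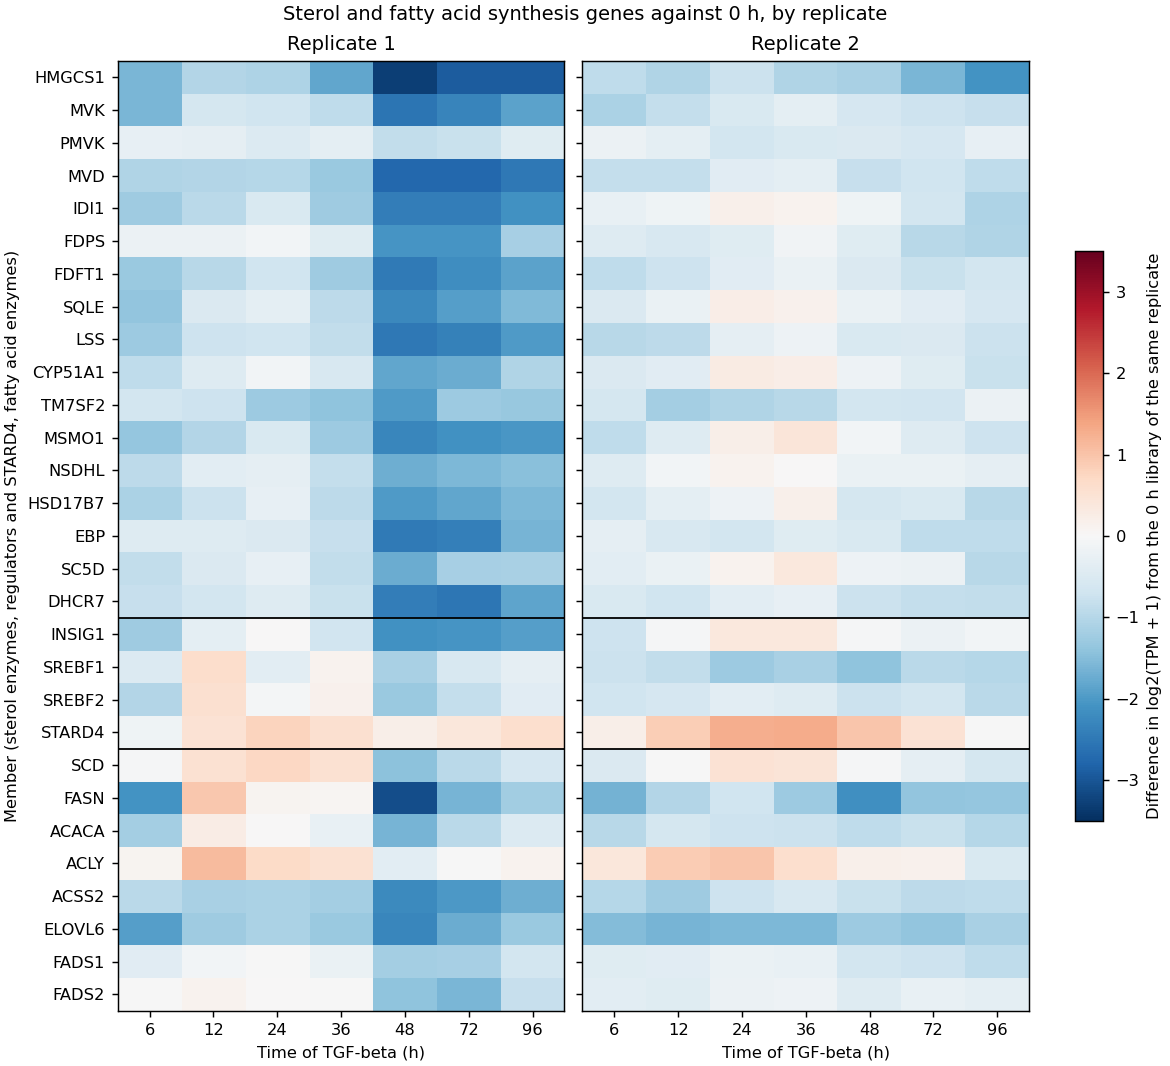
Difference in log2(TPM + 1) of each of the 29 genes from the 0 h library of the same replicate, with time in hours on the x axis and a panel for each replicate; lines separate sterol enzymes, regulators with STARD4, and fatty acid enzymes. Replicate 1 turns dark blue from 48 h, down to -3.30 for HMGCS1, whereas STARD4, ACLY and SCD are above 0 at 24 h in both replicates.

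Among the sterol enzymes, HMGCS1 had the lowest difference from 0 h at 12, 36, 48, 72 and 96 h, with MVK lower at 6 h and TM7SF2 at 24 h. HMGCS1 makes HMG-CoA, an early intermediate of the mevalonate route. Values of each gene are given in TPM, in the order 0, 6, 12, 24, 36, 48, 72 and 96 h. HMGCS1 measured 114, 37.0, 55.7, 53.1, 31.9, 10.7, 14.3 and 14.3 in replicate 1. Its replicate 2 libraries held 92.2, 49.5, 43.9, 54.8, 44.1, 41.6, 29.6 and 20.7. Every library after 0 h lay below both 0 h libraries, with the lowest value in replicate 1 at 48 h, and replicate 2 reached its own lowest only at 96 h. HMGCS1 fell by 2.21 ± 0.49 (SE) at 48 h, by 2.26 at 72 h and by 2.51 at 96 h on the log2(TPM + 1) scale (limma, adjusted p = 0.0233, 0.0298 and 0.0218). With TMM these differences were -1.68, -2.05 and -2.23, of which that at 96 h alone stayed below the threshold of 0.05 (adjusted p = 0.0919, 0.0527 and 0.0453). Each call was lost without either 0 h library or without replicate 1 of its own time.

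MVD, which decarboxylates mevalonate diphosphate to the isoprenoid unit, measured 49.9, 23.7, 24.2, 24.3, 19.7, 6.58, 6.51 and 7.96 in replicate 1. In replicate 2 MVD gave 23.6, 12.8, 12.9, 17.6, 18.3, 13.0, 14.2 and 12.3. The 0 h libraries stood far apart, and both 48 h libraries lay below both of them. MVD fell by 1.78 ± 0.48 at 48 h (limma, adjusted p = 0.0425; with TMM -1.26, adjusted p = 0.189), and 9 of the 16 omissions of a single library ended that call: either library of 0, 6, 24 or 36 h, or replicate 1 of 48 h. DHCR7, the last enzyme of the route, reduces 7-dehydrocholesterol to cholesterol and measured 51.9, 29.5, 33.1, 37.5, 29.7, 8.83, 8.22 and 13.7 in replicate 1. DHCR7 in replicate 2 was 45.3, 31.1, 27.6, 34.8, 37.1, 26.4, 24.9 and 24.4. All later libraries were under both 0 h libraries, and replicate 1 at 48 and 72 h was under a level of 9 TPM while replicate 2 stayed above 24 TPM. Its 48 h difference of -1.59 ± 0.49 missed the threshold (limma, adjusted p = 0.0635) and passed it with the replicate number as a block (adjusted p = 0.0245).

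The other 14 sterol enzymes cover mevalonate phosphorylation (MVK, PMVK), isoprenoid condensation (IDI1, FDPS), squalene formation and oxidation (FDFT1, SQLE), cyclisation to lanosterol (LSS) and the demethylation, reduction and isomerisation of sterol rings (CYP51A1, TM7SF2, MSMO1, NSDHL, HSD17B7, EBP, SC5D). Their 48 h differences from 0 h ran from -1.57 (MVK) to -0.68 (PMVK). None of the 14 was called without a block, with adjusted p from 0.0501 (FDFT1) to 0.157 (MSMO1). All 14 had an unadjusted p under 0.05, as had 28.9% of all tested genes. With the block 9 of the 14 passed, FDFT1 among them (adjusted p = 0.0260), and with TMM none did. In replicate 1 the 17 sterol enzymes stood at 9.35% (HMGCS1) to 51.9% (PMVK) of their 0 h TPM at 48 h, and in replicate 2 at 45.2% to 93.7% (MSMO1). These ranges overlapped only through PMVK, the highest of replicate 1. For MSMO1, a sterol methyl oxidase, the replicates differed widely: it measured 65.9 TPM at 0 h and 12.7 at 48 h in replicate 1, and 44.3 and 41.5 in replicate 2. Reads of HSD17B7 may be shared with its copy HSD17B7P2, whose mean level was 18.0% of that of HSD17B7, so HSD17B7 is less certain than the others.

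**Figure D2:**
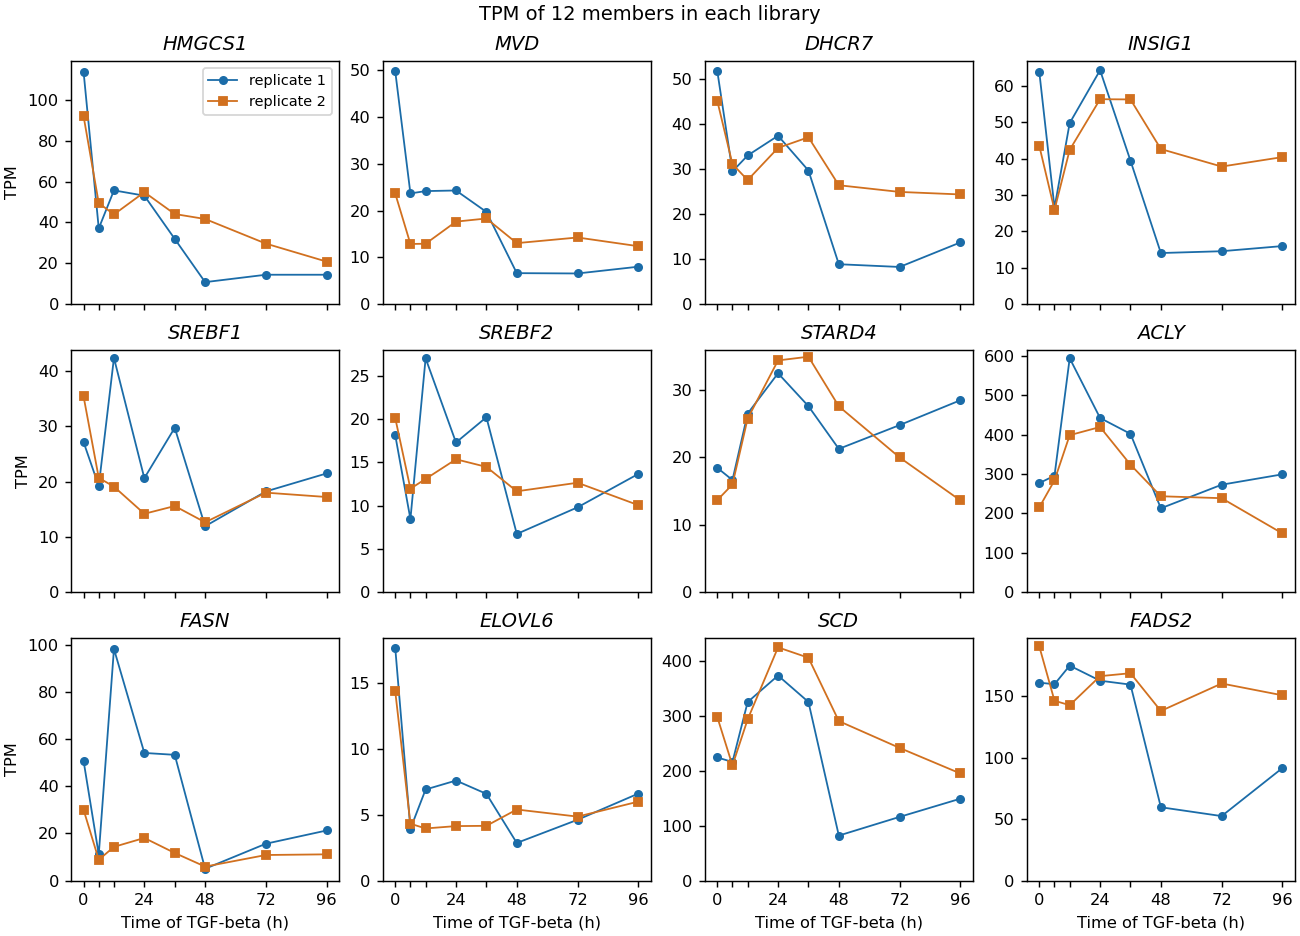
TPM of 12 of the 29 genes in each library against time in hours, with replicate 1 as blue circles and replicate 2 as orange squares. The replicates part at 48 h for HMGCS1, DHCR7, INSIG1, SCD and FADS2, while STARD4 and ACLY stand above 0 h at 12 and 24 h in both, and FASN and SREBF1 are high at 12 h in replicate 1 alone.

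The 3 regulators and the carrier STARD4 followed different courses. INSIG1, the sterol-sensing retention protein and itself a classical SREBP target, measured 63.9, 26.5, 49.8, 64.4, 39.5, 14.0, 14.5 and 15.9 TPM in replicate 1. INSIG1 in replicate 2 was 43.5, 25.9, 42.5, 56.4, 56.4, 42.7, 37.9 and 40.5. Both 6 h libraries were near 26 TPM, both 24 h libraries were back at or above the 0 h value of their replicate, and only replicate 1 was low from 48 h. No INSIG1 difference passed the test: at 48 h it was -1.07 ± 0.53 (limma, adjusted p = 0.203, 0.116 with the block), made of -2.11 in replicate 1 and -0.03 in replicate 2.

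SREBF1 encodes the SREBP that mainly serves fatty acid synthesis, and measured 27.1, 19.2, 42.4, 20.6, 29.7, 11.9, 18.2 and 21.5 in replicate 1. SREBF1 in replicate 2 gave 35.4, 20.7, 19.1, 14.2, 15.6, 12.7, 18.0 and 17.2. It was highest at 12 h in replicate 1 and at 0 h in replicate 2, and both 48 h libraries lay near 12 TPM, below both 0 h libraries. The SREBF1 difference at 48 h was -1.27 ± 0.37 (limma, adjusted p = 0.0527), and it passed with the block (adjusted p = 0.0235) and with TMM and block together (-0.74, adjusted p = 0.0481). SREBF2 encodes the SREBP that mainly serves sterol synthesis. SREBF2 measured 18.2, 8.46, 27.0, 17.3, 20.2, 6.74, 9.82 and 13.7 in replicate 1. Replicate 2 of SREBF2 gave 20.1, 12.0, 13.1, 15.4, 14.5, 11.7, 12.7 and 10.1. Its lowest library was replicate 1 at 48 h and its highest replicate 1 at 12 h, and the 48 h difference of -1.02 ± 0.35 was not called (limma, adjusted p = 0.0867, 0.0590 with the block).

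STARD4, a carrier that moves sterols between membranes, stood above 0 h where most of the set stood below. STARD4 measured 18.4, 16.6, 26.4, 32.4, 27.5, 21.2, 24.7 and 28.4 in replicate 1. In replicate 2 STARD4 was 13.6, 15.96, 25.7, 34.3, 34.9, 27.5, 19.9 and 13.6. All libraries of 12, 24, 36, 48 and 72 h lay above both 0 h libraries, whereas at 96 h replicate 2 was back at its 0 h value and replicate 1 was not. The STARD4 difference at 24 h, 1.03 ± 0.31, was not called (limma, adjusted p = 0.153, 0.0788 with the block). With TMM it was 1.18 and passed (adjusted p = 0.0485), as did the TMM value of 1.11 at 48 h (adjusted p = 0.0451). Leaving out either 96 h library from the unscaled values also brought the 24 h difference past the threshold (adjusted p = 0.0359 and 0.0362). An antisense gene, STARD4-AS1, had a mean level of 9.12% of that of STARD4, and whether the counting used strand is not given in the sources used here.

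In the fatty acid arm, ELOVL6 was the gene with the most calls. It lengthens palmitate to stearate. ELOVL6 measured 17.7, 3.94, 6.93, 7.61, 6.60, 2.87, 4.63 and 6.62 in replicate 1. ELOVL6 in replicate 2 was 14.4, 4.33, 3.97, 4.15, 4.17, 5.41, 4.87 and 6.01. Each of the 14 later libraries was below both 0 h libraries, already from 6 h on, and at 6 h both libraries stood near 4 TPM. ELOVL6 fell by 1.77 ± 0.34 at 48 h and by 1.56 ± 0.34 at 72 h (limma, adjusted p = 0.0148 and 0.0321). TMM left these calls in place (-1.29 and -1.37, adjusted p = 0.0124 and 0.0101) and added calls at 12, 24 and 36 h (adjusted p = 0.0221, 0.0244 and 0.0137). The block did so too (adjusted p = 0.0364, 0.0380 and 0.0207). Its 6 h difference of -1.73 ± 0.34 was not called (adjusted p = 0.130). The 48 h call was lost without either 0 h library or replicate 1 of 48 h, and the 72 h call without either library of 0, 6 or 72 h.

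FASN, the multifunctional synthase that assembles palmitate, had the largest 6 and 48 h differences of the set and the widest spread. FASN measured 50.8, 11.1, 98.2, 54.1, 53.3, 5.07, 15.7 and 21.3 in replicate 1. FASN in replicate 2 was 30.1, 8.88, 14.3, 18.1, 11.8, 5.98, 10.9 and 11.2. The replicates met at 6 and 48 h, where all 4 libraries were below both 0 h libraries, and differed most at 12 h. Its differences were -1.87 ± 0.81 at 6 h and -2.62 ± 0.81 at 48 h (limma, adjusted p = 0.357 and 0.0635), and with the block the 48 h value passed (adjusted p = 0.00869; 0.00565 with TMM as well). ACACA, which makes malonyl-CoA, measured 51.5, 22.2, 62.2, 52.4, 42.5, 16.1, 26.5 and 37.0 in replicate 1. ACACA in replicate 2 gave 56.7, 28.6, 36.6, 33.8, 33.0, 29.9, 32.5 and 28.0. It fell by 1.26 ± 0.34 at 48 h (limma, adjusted p = 0.0440), where both libraries were below both 0 h libraries, but 11 of the 16 omissions of a single library ended that call, all but those of 12 and 96 h and of replicate 2 at 48 h, and TMM gave -0.72 (adjusted p = 0.0824).

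ACLY and ACSS2 both supply cytosolic acetyl-CoA, from citrate and from acetate, and lay on opposite sides of 0 h up to 36 h. ACLY measured 277, 296, 594, 442, 402, 213, 273 and 299 in replicate 1. ACLY in replicate 2 was 216, 284, 399, 419, 324, 244, 239 and 149. The 6, 12, 24 and 36 h libraries all lay above both 0 h libraries, with 12 h of replicate 1 the highest, and from 48 h on the times overlapped 0 h. ACLY stood 0.99 ± 0.30 above 0 h at 12 h and 0.81 ± 0.30 at 24 h (limma, adjusted p = 0.227 and 0.287). The 12 h value passed with the block (adjusted p = 0.0455) and the 24 h value with TMM (0.98, adjusted p = 0.0412). ACSS2 measured 20.3, 10.2, 8.68, 8.78, 8.39, 3.52, 4.28 and 5.56 in replicate 1. ACSS2 in replicate 2 gave 16.2, 7.53, 6.32, 9.40, 10.6, 9.05, 8.12 and 8.36. Every later library was under both 0 h libraries. ACSS2 fell by 1.504 ± 0.38 at 48 h (limma, adjusted p = 0.0362), a call lost with TMM (-1.02, adjusted p = 0.211) and without either library of 0 or 24 h or replicate 1 of 48 h.

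The 3 desaturases differed among themselves. SCD places the first double bond in stearate and palmitate, and measured 224, 216, 325, 373, 325, 82.1, 116 and 149 TPM in replicate 1. SCD in replicate 2 was 298, 209.8, 293, 424, 406, 290.4, 242 and 195. Both 24 h libraries and both 36 h libraries exceeded both 0 h libraries, and at 48 h replicate 1 was low while replicate 2 stood at its 0 h level. No SCD difference was called (24 h 0.62 ± 0.47, 48 h -0.74 ± 0.47, limma, adjusted p = 0.762 and 0.297). FADS1 and FADS2 are the delta-5 and delta-6 desaturases of polyunsaturated fatty acids. FADS1 measured 145, 110.2, 137, 145, 124, 62.9, 64.1 and 93.4 in replicate 1. FADS1 in replicate 2 gave 156, 116, 118, 132, 131, 100.3, 94.3 and 83.3. All FADS1 libraries from 48 h on were below both 0 h libraries, and it fell by 0.92 ± 0.25 at 48 h (limma, adjusted p = 0.0430). That call was lost with TMM (-0.36, adjusted p = 0.511) and without either library of 0, 6, 24 or 36 h or replicate 1 of 48 h. FADS1 and FADS2 lie on opposite strands with annotated starts 800 bases apart (RefSeq, GRCh38.p14), placed so that the first bases of each overlap the other, and reads there cannot be assigned with certainty where strand use is unknown. FADS2 measured 161, 159.9, 175, 163, 159.6, 59.8, 52.6 and 91.7 in replicate 1. FADS2 in replicate 2 was 191, 147, 143, 167, 169, 138, 161 and 151. FADS2 was low only in replicate 1 from 48 h on, and its 48 h difference of -0.94 ± 0.46 was not called (limma, adjusted p = 0.195, 0.0984 with the block).

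At 48 h against 0 h, the comparison with the most calls, 6 of the 29 genes were called lower and none higher: HMGCS1, MVD, ACSS2, ACACA, ELOVL6 and FADS1. Of all tested genes, 6.8% were called lower and 0.796% higher. The median difference of the 29 genes was -1.26 against -0.46 over all tested genes; with TMM it was -0.72 against -0.04. In replicate 1 alone the median of the set was -2.07, and in replicate 2 alone -0.54, or -1.44 and -0.12 with TMM. Same-numbered libraries deviated together over all tested genes. With the replicate number as a block, 18 of 29 genes were called lower, against 14.9% of all tested genes. The block takes the offset between replicates as the same at all times. In the set it was not: 6 of 29 genes were lower in replicate 1 at 0 h, 3 at 12 h and all 29 at 48 h. The blocked calls of the set are less certain for that. With TMM ELOVL6 was called lower and STARD4 higher, and no other gene of the set, against 2.42% lower and 2.49% higher of all tested genes. ACLY changed sign to above 0 with TMM. With TMM and the block together 6 genes were called (12% of all tested genes in either direction), ELOVL6, HMGCS1, FASN, ACACA and SREBF1 lower and STARD4 higher. Both 48 h libraries were below both 0 h libraries for 26 of 29 genes, and for 62.3% of all tested genes.

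These calls rest on replicate 1 of 48 h and on both 0 h libraries. Without replicate 1 of 48 h, without replicate 1 of 0 h or without replicate 2 of 0 h, no gene of the set was called at 48 h, and without replicate 2 of 48 h 20 were. With the block the corresponding counts were 0, 3, 2 and 27. Leaving out a 6 h library left 3 calls and leaving out a 24 h library left 2. The share of all tested genes called under these omissions is not given here, so these counts cannot be read as particular to the set. Replicate 1 at 48 h was also the library with the highest share of small RNAs, 64.1% against 60.2% in replicate 2. It had the lowest mitochondrial sum too, 3631 against 4909 TPM. Replicate 1 of 72 and 96 h, where the sterol enzymes were also low, had small RNA shares of 55.1% and 50.6% and mitochondrial sums of 7127 and 9118 TPM, within the range of the other libraries. The part of these library properties in the differences was not tested. The 10 proliferation markers were also lower at 48 h: 6 of 10 were called lower, 10 with the block. Their 48 h median was -1.78 (-1.24 with TMM), with -2.17 in replicate 1 and -1.44 in replicate 2. At 72 h it was -2.05 and -1.05 in replicates 1 and 2, against -1.75 and -0.65 for the set. The replicates stood in the other order from the set at 36 h (-0.49 and -1.23 against -0.80 and -0.24). So they did at 96 h (-0.73 and -1.53 against -1.32 and -0.87). With TMM the markers stood at -0.56 and -0.84 at 36 h, against -0.87 and 0.15 for the set. At 96 h the TMM values were -0.84 and -0.90 against -1.39 and -0.22, so the marker replicates nearly met there. The part of these markers in the result was not tested.

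**Figure D3:**
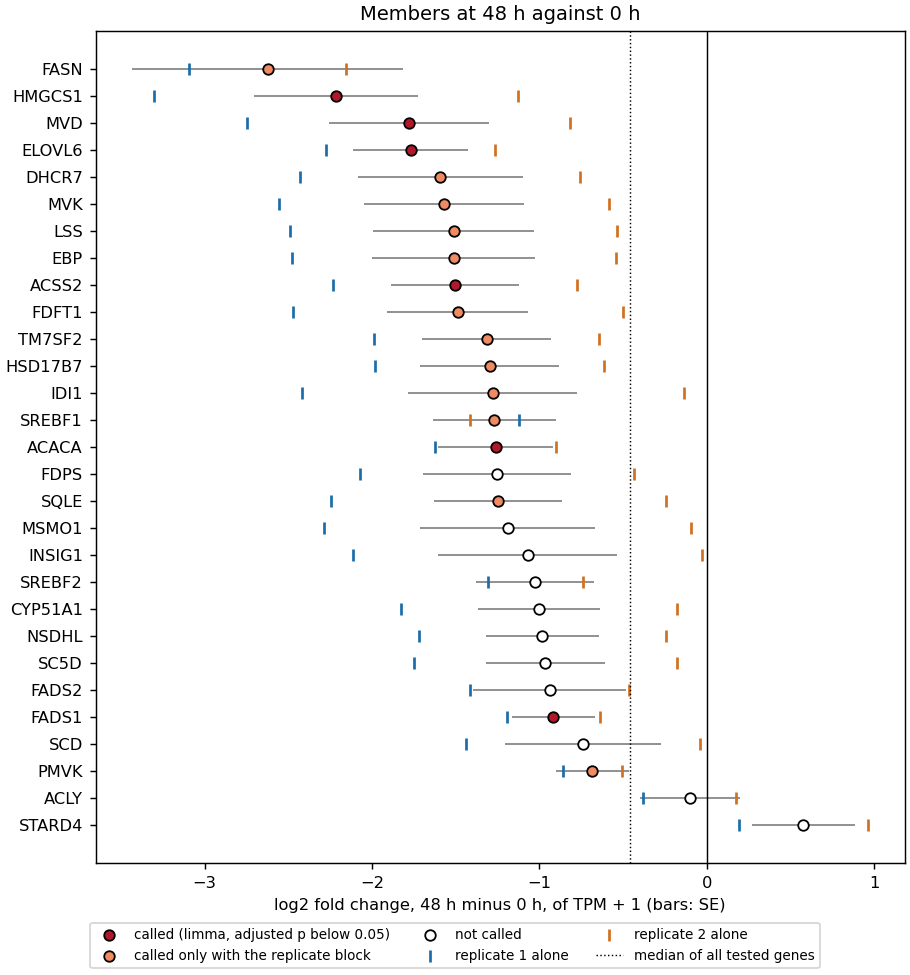
log2 fold change (of TPM + 1) of the 29 genes at 48 h against 0 h, with standard errors as bars; dark red circles mark calls, orange circles calls made only with the replicate block and open circles no call; blue and orange ticks mark replicates 1 and 2 alone, and the dotted line is the median of all tested genes (-0.46). The replicate 1 tick lies left of the replicate 2 tick for all genes except SREBF1.

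At the earlier times no gene of the set was called by the fit without a block. At 6 h the median of the 29 genes was -0.75 against -0.37 for all tested genes, 26 of 29 genes had both libraries below both 0 h libraries against 61.8% of all tested genes, and 10 of 29 had an unadjusted p under 0.05 (limma), against 13.6% of all tested genes. With TMM the 6 h median was -0.23, and EBP, FADS1, FADS2, FDPS, PMVK and SCD changed sign to above 0. Of all tested genes 0.0177% were called lower at 6 h and 0% higher. The lowest 6 h values were those of FASN (-1.87), ELOVL6 (-1.73), MVK (-1.36) and HMGCS1 (-1.24), and the block gave no call, as it gave few among all tested genes (0.0707%). With TMM and the block ELOVL6 was called (adjusted p = 0.0222), against 2.3% of all tested genes in either direction. At 12 h the median was -0.37 against 0.03, with 5 genes at an unadjusted p under 0.05 (8.29% of all tested genes), and the block added ACLY (higher) and ELOVL6 (lower), against 1.92% of tested genes called higher and 0.684% lower with the block. With TMM ELOVL6 was the gene of the set called at 12 h, against 0.289% of tested genes called lower. Without a block 0.13% of tested genes were called lower and 0.253% higher. At 12 h the median of all tested genes was 0.32 in replicate 1 and -0.25 in replicate 2. The high 12 h values of FASN, SREBF1, SREBF2 and ACACA in replicate 1 stand in that library, which had the lowest small RNA share and the highest mitochondrial sum; the part of these was not tested.

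At 24 h the median of the set over both replicates was nearest to 0, while replicate 2 alone was nearest at 36 h (84.5% of 0 h TPM against 76.8% at 24 h). The median was -0.25 against -0.15 over all tested genes (-0.08 with TMM), and 4 genes, INSIG1, STARD4, SCD and ACLY, were above their 0 h value in both replicates. No gene was called without a block, 7 had an unadjusted p under 0.05 against 10.8% of all tested genes, and 0.595% of all tested genes were called lower and 0.613% higher. The block called ELOVL6, against 1.92% of tested genes called lower, and TMM called ELOVL6 lower and STARD4 and ACLY higher, against 0.784% lower and 1.96% higher. FADS1, FADS2, NSDHL, SC5D and SQLE changed sign to above 0 with TMM at 24 h, as FADS2 did at 36 h. At 36 h the median was -0.44 against -0.16, with no call (5 at an unadjusted p under 0.05, and 14.4% of all tested genes), against 1.33% lower and 0.967% higher of all tested genes. The block, like TMM, called ELOVL6 alone, where they called 3.15% and 1.53% of tested genes lower. At 36 h the sterol enzymes stood at a median of 52.1% of their 0 h TPM in replicate 1 and 87.6% in replicate 2. The replicates were also apart at 6 h (47.5% and 68.8%) and nearer each other at 24 h (69.6% and 76.8%).

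At 72 h HMGCS1 and ELOVL6 were called lower, 2 of 29 genes, against 1.74% of all tested genes called lower and 0.831% called higher, and at 96 h HMGCS1 alone was, against 1.26% lower and 0.536% higher. The block raised these to 10 genes at 72 h (ACSS2, DHCR7, EBP, ELOVL6, FADS1, FDFT1, FDPS, HMGCS1, IDI1 and MVD) and 3 at 96 h (HMGCS1, HSD17B7 and IDI1), all lower, where it called 4.22% and 3.31% of all tested genes lower. The medians of the set were -1.16 and -1.06, against -0.16 and -0.20 over all tested genes, or -0.96 and -0.82 with TMM, so the distance from the median gene was as large at 72 and 96 h as at 48 h. With TMM the calls were ELOVL6 at 72 h and HMGCS1 at 96 h, against 1.59% and 1.09% of tested genes called lower. TMM with the block called 2, 3, 2, 4 and 2 genes of the set at 12, 24, 36, 72 and 96 h, against 5.06%, 7.07%, 9.34%, 9.75% and 7.64% of tested genes in either direction. By replicate, the medians at 72 h were -1.75 and -0.65, and -1.66 and -0.33 with TMM. Those at 96 h were -1.32 and -0.87, and -1.39 and -0.22 with TMM. Both libraries were below both 0 h libraries for 26 of 29 genes at 72 h and 27 at 96 h, against 41.5% and 31% of all tested genes. The calls of both times were lost without either 0 h library or without replicate 1 of that time. The 72 h call of ELOVL6 was also lost without either 6 h library or replicate 2 of 72 h. An exact permutation test of 2 libraries against 2 cannot give a p below 0.333 and was not used.

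Between consecutive times no gene of the set was called at any of the 6 steps, with or without the block, and neither was any other tested gene except 0.00589% of them from 12 to 24 h with the block. From 36 to 48 h all 29 genes were lower in replicate 1 and 26 of 29 in replicate 2, as were 15629 and 9054 of all 16967 tested genes. Of the 29 genes, 10 had an unadjusted p under 0.05 (limma), against 6.31% of all tested genes. With TMM the count of the set was 2. The share of all tested genes with TMM at this step is not given here, so that count cannot be read as particular to the set. Over the whole course the limma F test called none of the 29 genes (15 at an unadjusted p under 0.05, against 14.0% of all tested genes) and 1.72% of all tested genes by the adjusted p. With the block it called HMGCS1, ACLY and FASN (adjusted p = 0.0187, 0.0308 and 0.0425) and 6.13% of all tested genes. With TMM it called ELOVL6 (adjusted p = 0.0486) and 3.3% of all tested genes, and with TMM and the block 4 genes of the set (ACLY, ELOVL6, FASN and HMGCS1) and 11.5% of all tested genes.

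Genes next to these routes were described from lists chosen with earlier results known. Among genes that supply NADPH and acetyl-CoA, PGD, an NADPH-forming dehydrogenase of the pentose phosphate route, was called lower at 24, 36, 48, 72 and 96 h. PGD measured 514, 397, 309, 193, 184, 143, 160.2 and 168 TPM in replicate 1. PGD in replicate 2 was 674, 448, 364, 227, 206, 217, 204 and 260.1. All 14 later libraries were below both 0 h libraries, with the lowest value in replicate 1 at 48 h and replicate 1 below replicate 2 at every time. PGD fell by 1.49 ± 0.27 at 24 h, 1.74 at 48 h and 1.49 at 96 h (limma, adjusted p = 0.0207, 0.00470 and 0.0146). The values at 36 and 72 h were -1.59 and -1.70 (adjusted p = 0.0106 and 0.00680). No PGD call held with TMM (at 24, 48 and 96 h -1.32, -1.18 and -1.21), and each was lost without replicate 2 of 0 h or replicate 1 of its own time, those of 24 and 36 h also without replicate 2 of that time and that of 24 h without replicate 1 of 0 h. Of the 8 genes of this list, 4 were called lower at 48 h and 2 at 96 h, or 7 and 5 with the block and none with TMM, with medians of -1.06 and -1.01 (-0.53 and -0.75 with TMM). TKT, a transketolase of the same route, fell by 1.14 at 96 h (limma, adjusted p = 0.0499; with TMM -0.87, not called), and 13 of 16 omissions of a library ended that call. The other calls of 48 h, named after their values were seen, were TKT (-1.34), TALDO1, a transaldolase (-0.77), and ACAT2, an acetoacetyl-CoA thiolase (-2.22), each lost without either 0 h library or replicate 1 of 48 h.

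NPC2, which hands cholesterol out of lysosomes, went the other way. NPC2 measured 103, 129, 145, 290.1, 366, 353, 365 and 354 TPM in replicate 1. NPC2 in replicate 2 was 65.5, 84.8, 129, 269.7, 410.1, 501, 456 and 425. All libraries from 12 h on were above both 0 h libraries. NPC2 rose by 1.76 ± 0.27 at 24 h, 2.34 at 48 h and 2.23 at 96 h (limma, adjusted p = 0.0101, 0.00163 and 0.00262), and TMM kept these calls; the 24 h call was lost without replicate 2 of 0 h or either 24 h library, and the 96 h call without replicate 2 of 0 h. Of the 10 tested genes of sterol uptake, storage and transport, 1 was called higher at 24, 48 and 96 h, NPC2 each time. At 48 h 3 were called lower, named after their values were seen: SCARB1, a lipoprotein receptor (-1.66), TMEM97, a sterol-responsive membrane protein (-2.22), and SOAT1, which esterifies cholesterol (-0.99). TMM ended the SOAT1 call only (-0.48), and each of the 3 was lost without replicate 2 of 0 h or replicate 1 of 48 h.

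The SREBP processing genes gave no call at 24 or 96 h among 7 tested (0 and 0 at an unadjusted p under 0.05, limma), and at 48 h MBTPS2, the site-2 protease, was called lower (-1.67, adjusted p = 0.0495), a call that 12 of 16 omissions of a library ended. Their median at 48 h was -0.47 (0.07 with TMM). The largest mean difference over the 7 times in that list was that of MBTPS2 (-0.89). LXR targets and efflux genes gave no call at 24, 48 or 96 h among 7 tested (1, 2 and 0 at an unadjusted p under 0.05), with a 48 h median of -0.20 (0.28 with TMM); the gene with the largest mean difference was MYLIP, a ubiquitin ligase, at -0.66 over the 7 times. Of 9 tested genes of the non-sterol isoprenoid branch COQ2, of ubiquinone synthesis, was called lower at 48 h (-1.39, adjusted p = 0.0243; 0.0924 with TMM), and none at 24 or 96 h (1 and 2 at an unadjusted p under 0.05). The block called 4 of them at 48 h. Their largest mean difference was that of COQ2 (-0.84). Fatty acid oxidation genes had a 96 h median of -0.44 with no call among 11 (2 at an unadjusted p under 0.05), and 3 calls lower at 48 h, CPT1A, CPT2 and HADH, none with TMM. The first of these controls entry of fatty acids into mitochondria. The oxidation gene with the largest mean difference was CPT1A (-0.79). Among 12 tested genes of elongation, desaturation and activation, ELOVL7, an elongase of long-chain fatty acids, fell by 1.79 at 96 h (limma, adjusted p = 0.0213), a call lost without replicate 2 of 0 h or replicate 1 of 96 h. ACSL5, an acyl-CoA synthetase, was called higher at 48 h (1.41). Among 10 genes of glycerolipid synthesis and droplets none was called at 24 or 96 h (3 and 4 at an unadjusted p under 0.05), and LPIN1 and PLIN2 were called lower at 48 h, neither with TMM. The droplet list's largest mean difference was that of LPIN1 (-1.05). CPT2, HADH, ACSL5 and PLIN2 are named after their values were seen. The 48 h calls of MBTPS2, COQ2, CPT1A, CPT2, HADH, ACSL5, LPIN1 and PLIN2 were each lost without either 0 h library or replicate 1 of 48 h.

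**Figure D4:**
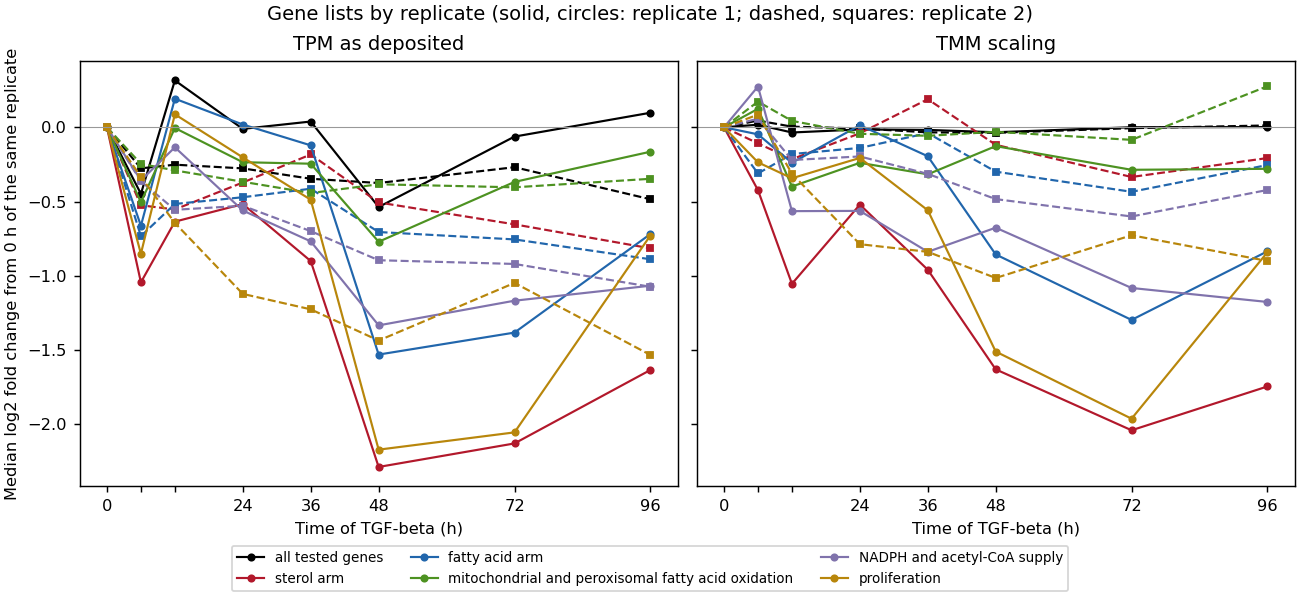
Median log2 fold change (of TPM + 1) from the 0 h library of the same replicate against time in hours, for all tested genes, the sterol and fatty acid enzymes and 3 other lists (solid lines with circles, replicate 1; dashed lines with squares, replicate 2), with TPM as deposited on the left and after TMM scaling on the right. In replicate 1 the sterol enzymes reach -2.29 at 48 h and in replicate 2 -0.51; after TMM the values are -1.63 and -0.12, and the fatty acid oxidation list stays nearer 0 from 48 h on than the sterol list in replicate 1.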

How the data were processed

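RNA of 16 A549 libraries was measured by RNA-seq. The authors deposited TPM values per gene in a table for each replicate; Bowtie and RSEM are named, per the submitters' processing notes, with no version. Neither the genome build nor the strand setting is given in the sources used here. TPM is a share of each library and keeps no depth. From the deposited TPM, log2(TPM + 1) was computed and fitted with limma 3.58.1 in R 4.3.3 on the 16967 genes that reached 1 TPM in 2 or more libraries, with a mean per time over all 16 libraries, trended empirical Bayes and two-sided Benjamini-Hochberg adjusted p over all tested genes in each comparison (threshold 0.05). A fold change on this scale understates the change of low genes. Tables were summarised in Python 3.11.15 with pandas 2.3.3. The fit was tested on simulated data.

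The members and gene lists were chosen with earlier results of these data known. Values in every library are given for members called at any time, for the 5 lowest and 3 highest mean fold changes (SCD, the third highest, had a mean below 0), for the first and last enzymes of each arm and for the regulators. In other lists the called genes of 24 or 96 h are named, up to 4 a list, else the gene with the largest mean fold change. The replicate numbers were taken as pairs because deviations of same-numbered libraries from their time means correlated above 0.1 in 28 of 28 pairs of times (lowest 0.128, median 0.438; after TMM in 27 of 28, lowest 0.0799, so that pairing is less certain for fits with TMM and block); the pairing comes from the data, not from the labels. Those deviations were taken over all tested genes, not over the set. No pair of libraries was identical (highest correlation 0.989). Alternatives were a pseudocount of 0.1, no filter, a mean of at least 5 TPM, TMM scaling (trimming 30% of ratios and 5% of levels, computed on TPM), rescaling without 6 small RNAs, the replicate block, and omission of libraries. Of the gene lists, 1 pathway gene and 1 leukocyte marker are not reported here and were left out of the counts. Promoter windows are RefSeq sequences of GRCh38.p14, matched by symbol, with the first window listed for each gene.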

Additional observations from a re-analysis of the deposited data

How the results depend on the processing

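Over all libraries in a fit, the median of the 29 genes was below 0 at all 7 times under each alternative run. In replicate 2 alone with TMM it was -0.04 at 24 h and 0.15 at 36 h. Counts of called genes were the least stable. With TMM 1, 3, 1, 2 and 1 genes were called at 12, 24, 36, 48 and 72 h, the F test called 1, and the medians at 6 and 24 h were -0.23 and -0.0822. Rescaling without small RNAs gave 1, 2, 2, 1 and 1 calls at those times and medians of -0.45 and -0.16 at 12 and 24 h. The replicate block gave 2, 1, 1, 18, 10 and 3 calls from 12 to 96 h and 3 by the F test; it changed no count at 6 h or between consecutive times. TMM with the block gave 1, 2, 3, 2, 4 and 2 calls at 6, 12, 24, 36, 72 and 96 h and 4 by the F test. With no filter 1, 0 and 0 genes were called at 48, 72 and 96 h, and a mean of at least 5 TPM gave 10 at 48 h. Fits on only the 2 times compared gave 1, 0, 1 and 0 calls at 24, 48, 72 and 96 h and 1 between consecutive times. Leaving out replicate 2 of both 36 and 48 h raised the counts at 48 and 72 h and by the F test. Apart from TMM and the block, the share of all tested genes called under these alternatives is not given here. Those counts therefore cannot be read as particular to the set. The cause of these moves was not tested.

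Leaving out a library at a time gave 0 to 1 calls at 24 h, 0 to 2 at 36 h, 0 to 20 at 48 h, 0 to 7 at 72 h, 0 to 1 at 96 h and 0 to 1 by the F test. The medians ran from -0.99 to -0.53 at 6 h, -0.64 to -0.23 at 12 h, -0.48 to -0.18 at 24 h, -0.63 to -0.27 at 36 h, -1.86 to -0.66 at 48 h, -1.59 to -0.75 at 72 h and -1.34 to -0.85 at 96 h; at 48 and 72 h the ends are the values without replicate 2 and without replicate 1 of that time. An omission leaves a time with 1 library, whose spread is then assumed to equal that of the other times. With the block at 48 h, an alternative chosen after seeing the data, the counts were 0 without replicate 1 of 48 h, 3 and 2 without replicate 1 or 2 of 0 h, and 27 without replicate 2 of 48 h. The share of all tested genes called under these omissions is not given here either. With 2 libraries a time and no counts, sampling error cannot be separated from the spread between libraries.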

Other observations

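FADS1 and FADS2, neighbours on chromosome 11 on opposite strands, differed in balance between the replicates late in the course. The ratio of FADS2 to FADS1 TPM within a library was 1.11 and 1.22 at 0 h in replicates 1 and 2, 1.29 and 1.29 at 36 h, 0.951 and 1.38 at 48 h, 0.821 and 1.70 at 72 h and 0.983 and 1.81 at 96 h. From 48 h on the ratio was below its 0 h value in replicate 1 and above it in replicate 2, so the genes shifted against each other in opposite senses in the 2 replicates; this pattern was noticed after the values were seen, and the difference was not tested. A ratio within a library does not depend on its scaling. Reads from the bases where the 2 genes overlap cannot be assigned with certainty.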
